A study of Mus musculus with 4 samples.

Results

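The Zscan4 genes are a cluster of near-identical copies on mouse chromosome 7 that mark the 2-cell-like state of embryonic stem cells (ESCs). Every table row whose gene symbol, split at commas, begins with Zscan4 was taken. The rule found 6 of 14099 named rows, Zscan4a to Zscan4f, each with a single symbol. RefSeq lists Zscan4b, Zscan4c, Zscan4d and Zscan4f as protein coding and Zscan4a and Zscan4e as pseudogenes. The GENCODE M21 annotation lists only Zscan4a as one. The copies Zscan4-ps1, Zscan4-ps2 and Zscan4-ps3 are not analysed here.

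Polyadenylated RNA was sequenced from mouse ESCs labelled wild type (WT) and Naa10 knockout (Naa10-KO), with 2 libraries each. Both groups were F1 hybrids of a Naa10-/X C57BL/6 female and a WT JF1 male, derived from the inner cell mass of littermate blastocysts. All cells grew in N2B27 medium with Mek and Gsk3 inhibitors and LIF, and were passaged 5 times on irradiated mouse embryonic fibroblasts (MEFs) and 5 times without them. The labels call the libraries biological replicates without stating separate lines or cultures, so p-values measure only the spread between these libraries. The sources used here give neither the age and sex of the embryos nor the deleted part of Naa10.

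Zscan4 proteins carry a SCAN domain, through which such factors pair, and C2H2 zinc fingers that bind DNA. The genes are transcribed when the mouse embryonic genome is first activated, at the 2-cell stage, and later only in a small, changing fraction of ESCs. In ESCs they are known for telomere lengthening by recombination, for genome stability, and for a passing loss of DNA methylation in which Uhrf1 and Dnmt1 protein are reduced. The series title names DNA methylation and imprinting as the study's subject.

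The copies are shown first, because their likeness limits what a value per copy can mean. The next lines give 120 bases of each copy, aligned to coding bases 605 to 724 of Zscan4c, the stretch where the copies differ most. They were read from the GENCODE M21 transcripts (GRCm38, the C57BL/6J reference), 5′ to 3′, and capitals mark the 14 positions at which any copy differs from another.
Zscan4a: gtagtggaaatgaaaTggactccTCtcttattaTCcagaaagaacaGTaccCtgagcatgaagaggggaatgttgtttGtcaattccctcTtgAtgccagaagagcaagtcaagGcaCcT
Zscan4b: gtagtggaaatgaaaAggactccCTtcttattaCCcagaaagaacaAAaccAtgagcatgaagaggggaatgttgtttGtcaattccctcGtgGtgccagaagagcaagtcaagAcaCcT
Zscan4c: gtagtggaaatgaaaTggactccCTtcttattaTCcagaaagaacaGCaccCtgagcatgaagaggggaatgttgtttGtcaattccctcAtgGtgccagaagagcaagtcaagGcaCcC
Zscan4d: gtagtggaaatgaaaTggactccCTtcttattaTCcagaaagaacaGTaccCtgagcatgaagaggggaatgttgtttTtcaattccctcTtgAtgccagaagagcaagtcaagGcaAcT
Zscan4e: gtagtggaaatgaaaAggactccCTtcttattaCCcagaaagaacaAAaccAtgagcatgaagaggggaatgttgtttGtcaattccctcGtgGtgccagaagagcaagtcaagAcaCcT
Zscan4f: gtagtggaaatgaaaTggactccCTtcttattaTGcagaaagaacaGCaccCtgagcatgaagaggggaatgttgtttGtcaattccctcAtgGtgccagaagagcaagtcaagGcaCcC
Zscan4b and Zscan4e had the same letters over the whole stretch. In the first 120 coding bases, only 3 positions differed between copies, and Zscan4d alone departed from the other 5.

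Over full transcripts, pairwise identity ran from 96.6% for Zscan4b and Zscan4d to 99.7% for Zscan4b and Zscan4e, which had 5 mismatches over 1722 aligned bases. Zscan4c and Zscan4f had 9 mismatches over 1806 bases. The closest pairs were thus b with e and c with f. Of all 50-base words in the Zscan4f transcript, 95.3% also occurred in another Zscan4 gene, as did 91.6% for Zscan4e, 90.3% for Zscan4b and 85.5% for Zscan4c. The shares were 63.6% for Zscan4a and 49.6% for Zscan4d. With 100-base words the shares ran from 29.6% for Zscan4d to 89.5% for Zscan4f. Near-identical copies therefore share reads, and the sources used here do not say how the authors divided such reads. The JF1 alleles are not part of the reference.

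The RefSeq promoter table (GRCm38.p6) matched 4 of the 6 members. Their upstream sequences are shown because in all 4 rows both knockout libraries lay below both WT libraries. Each line gives 206 bases on the gene's own strand, 5′ to 3′, and capitals mark the 12 positions that differ. The windows are chr7:10905056-10905261 on the minus strand for Zscan4b and chr7:11005511-11005716 on the plus strand for Zscan4c. Those of Zscan4d and Zscan4f are chr7:11166188-11166393 on the minus strand and chr7:11397704-11397909 on the plus strand.
Zscan4b: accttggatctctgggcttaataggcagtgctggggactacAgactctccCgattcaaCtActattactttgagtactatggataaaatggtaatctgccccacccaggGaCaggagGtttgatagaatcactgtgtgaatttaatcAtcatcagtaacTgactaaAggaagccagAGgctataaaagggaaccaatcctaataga
Zscan4c: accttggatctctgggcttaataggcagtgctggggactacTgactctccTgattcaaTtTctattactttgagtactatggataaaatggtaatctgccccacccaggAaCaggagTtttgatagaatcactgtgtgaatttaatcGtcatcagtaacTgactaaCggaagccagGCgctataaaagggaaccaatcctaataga
Zscan4d: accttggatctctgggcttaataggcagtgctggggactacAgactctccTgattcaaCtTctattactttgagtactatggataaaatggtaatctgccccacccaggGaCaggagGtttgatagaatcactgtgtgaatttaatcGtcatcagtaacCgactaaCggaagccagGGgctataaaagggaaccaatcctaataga
Zscan4f: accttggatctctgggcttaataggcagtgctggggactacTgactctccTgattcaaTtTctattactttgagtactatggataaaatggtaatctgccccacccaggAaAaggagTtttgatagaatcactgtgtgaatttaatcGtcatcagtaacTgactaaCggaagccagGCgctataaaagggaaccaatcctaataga
The windows were cut by the place of the letters TATAAA, so their position near the end of all 4 windows was set beforehand. These letters began 31 bases before the annotated start in Zscan4b and Zscan4f, 54 bases before it in Zscan4c and 65 bases before it in Zscan4d. Of 32851 promoters of 300 bases, 13.6% held TATAAA on either strand and 8.32% on the gene's own strand. The match describes letters only.

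The targeted gene was read first. Naa10, the catalytic subunit of the NatA complex that acetylates protein N-termini, shared a row with its neighbour Renbp, which stood at 105 and 106 RPKM (reads per kilobase of transcript and per unit of library size) in WT replicates 1 and 2. It stood at 28.9 and 34.4 RPKM in Naa10-KO replicates 1 and 2, and the row fell (log2 difference -1.71, SE 0.11, limma adjusted p = 0.0342). Without rows listed at 0 and small RNA rows the adjusted p of the Naa10 row was 0.0822, and without WT replicate 1 or 2 it was 0.366 and 0.355, with the difference at -1.71 and -1.70. Stepwise spacing of low values put the depth of WT replicate 2 at 1.02 times that of WT replicate 1, and the Naa10-KO libraries at 1.46 and 1.68 times. The WT libraries lay much closer to each other than the Naa10-KO libraries did, with median absolute log2 differences of 0.05 and 0.24. Pou5f1, the ESC factor also called Oct4, was at 808 and 815 RPKM in WT and 924 and 971 in Naa10-KO.

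All 6 Zscan4 rows had lower values in both Naa10-KO libraries than in both WT libraries, and none passed the threshold of adjusted p under 0.05. Summed over the copies, Naa10-KO replicate 1 had 0.395 of the mean WT level and replicate 2 had 0.192. The 2 knockout libraries thus lay below WT to unequal degrees, while the sum of WT replicate 2 was 1.03 of that of replicate 1. In bulk RNA, fewer cells in the 2-cell-like state and less Zscan4 RNA per such cell cannot be told apart.

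Zscan4f, a protein-coding copy, had the highest level of the 6. It stood at 2.80 and 2.87 RPKM in WT replicates 1 and 2 and at 1.17 and 0.539 RPKM in Naa10-KO replicates 1 and 2. The groups did not overlap, and the second knockout library was the lowest. On the log2(RPKM + 1) scale the difference was -1.07 (SE 0.21, limma adjusted p = 0.127).

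Zscan4c, the copy most often used to trace the 2-cell-like state in reporter lines, stood at 2.04 and 2.19 RPKM in WT against 0.857 and 0.393 in the knockout. Its difference was -0.95 (SE 0.19, limma adjusted p = 0.127). Zscan4d, the main copy transcribed in the 2-cell embryo, stood at 1.64 and 1.77 RPKM in WT against 0.728 and 0.330 in the knockout. As with Zscan4f, replicate 1 of the knockout lay between the WT values and replicate 2. The difference of Zscan4d was -0.83 (SE 0.17, limma adjusted p = 0.136).

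Zscan4b stood at 1.81 and 1.76 RPKM in WT against 0.658 and 0.374 in the knockout, a difference of -0.88 (SE 0.15, limma adjusted p = 0.111). Zscan4e, a pseudogene in RefSeq, stood at 1.74 and 1.76 RPKM in WT against 0.606 and 0.345 in the knockout. Its difference was -0.90 (SE 0.14, limma adjusted p = 0.104). Zscan4b and Zscan4e, the pair with the same letters above, also had close values in every library. Zscan4a, a pseudogene in both annotations, was lowest in WT, at 1.52 and 1.53 RPKM, and stood at 0.607 and 0.268 RPKM in Naa10-KO. Its difference was -0.82 (SE 0.16, limma adjusted p = 0.129).

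**Figure D1:**
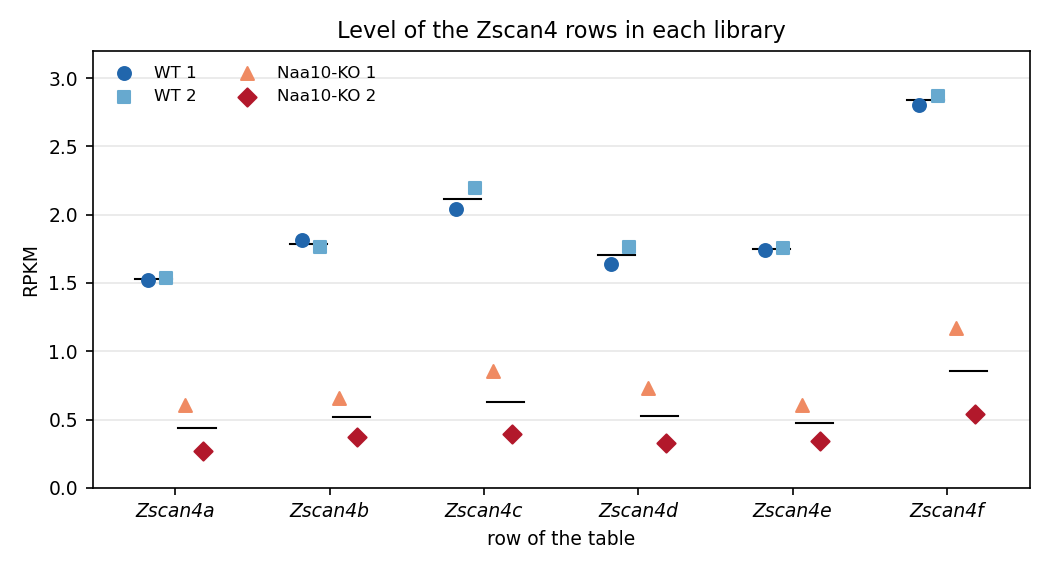
RPKM of the 6 Zscan4 rows in each of the 4 libraries, with points for libraries and horizontal bars for the group means. In every row both WT libraries lie above both Naa10-KO libraries, and Naa10-KO replicate 2 is lowest, as for Zscan4f at 0.539 RPKM against 1.17 in Naa10-KO replicate 1.

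The order of the WT means was Zscan4f, Zscan4c, Zscan4b, Zscan4e, Zscan4d and Zscan4a. Zscan4f lay above all others in both WT libraries and Zscan4c above the remaining 4. The WT values of Zscan4d overlapped those of Zscan4e and Zscan4b, so Zscan4e and Zscan4d, neighbours in this order, did not differ beyond their spread. Both WT values of Zscan4b lay just above both of Zscan4e, by less than 0.1 RPKM. RPKM is a level per length, and the transcript lengths the authors used are not given. The longest GENCODE transcripts ran from 1745 nt for Zscan4e to 2279 nt for Zscan4a, so the order may move with the annotation. Among all 14099 rows, the Zscan4 rows lay at percentiles 21.7 to 32.3 in the WT libraries, 11.4 to 19.6 in Naa10-KO replicate 1 and 4.27 to 10.3 in Naa10-KO replicate 2.

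Each knockout library was set against each WT library. The lowest of the 4 ratios of a row ran from 0.175 for Zscan4a to 0.206 for Zscan4b. The highest ran from 0.348 for Zscan4e to 0.444 for Zscan4d. Every ratio was thus under 0.5, while within WT replicate 2 was 0.972 to 1.08 of replicate 1. Within Naa10-KO, replicate 2 was 0.441 to 0.461 of replicate 1 in Zscan4a, Zscan4c, Zscan4d and Zscan4f. It was 0.568 and 0.569 in the near-identical pair Zscan4b and Zscan4e. Assuming fragments of 200 nt, an estimated 137 to 244 fragments per row stood behind the WT values, 69 to 141 behind Naa10-KO replicate 1 and 46 to 75 behind replicate 2.

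No Zscan4 row passed adjusted p under 0.05 in limma, where 0.764% of the 11912 tested rows did (0.546% lower in Naa10-KO and 0.218% higher). Unadjusted p ran from 0.00331 to 0.00920 and was under 0.05 in 6 of 6 rows, against 13.2% of tested rows that were lower at that level. Both knockout libraries lay below both WT libraries in 34.9% of tested rows. A ratio to the WT mean under 0.5 in both knockout libraries, as in the 6 Zscan4 rows, was found in 2.01% of tested rows. It was found in 3.14% of the 1371 rows with a WT mean in the range of the Zscan4 rows. The copies share reads, so the 6 rows are not 6 separate measurements. When either knockout library was left out, all 6 passed (limma adjusted p 0.00470 to 0.00839), as did 41.5% and 59.4% of all tested rows, with the spread taken from the WT pair alone. When WT replicate 1 or 2 was left out, 0 of the 6 passed (limma adjusted p 0.969 and 0.947). With 0.1 in place of 1 added to the RPKM, their differences ran from -1.72 to -1.59. The rows entered the test through WT, since all 6 reached 1 RPKM in both WT libraries and only Zscan4f did in a knockout library. This favours lower values in the knockout, so the counts and shares above are a description only. The 1371 rows include the 6 Zscan4 rows.

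The sum over the 6 copies depends less on how reads were divided between them. It was 11.6 and 11.9 RPKM in WT replicates 1 and 2, against 4.63 and 2.25 RPKM in the 2 knockout libraries. The WT mean was 11.7 ± 0.227 RPKM (SD, n = 2) and the Naa10-KO mean 3.44 ± 1.68 RPKM (SD, n = 2), a ratio of 0.293. The spread within Naa10-KO was the larger one, and both its values lay below the WT values. With the copies entered as 1 summed row, the limma difference was -1.57 (SE 0.30, adjusted p = 0.126). An exact two-sided permutation test of 2 against 2 libraries cannot go below p = 0.333.

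The make-up of the sum was alike in the 4 libraries. The copies share reads and how these were divided is not known, so the shares are not separate measurements of each copy. Zscan4f gave 24.3% and 24.2% of it in WT and 25.3% and 24.0% in Naa10-KO. Zscan4c gave 17.6% and 18.5% in WT and 18.5% and 17.5% in Naa10-KO. Zscan4d, the copy with the fewest shared words, gave 14.2% and 14.9% in WT and 15.7% and 14.7% in Naa10-KO. Zscan4b gave 14.2% in Naa10-KO replicate 1 and 16.6% in replicate 2, and Zscan4e gave 13.1% and 15.3%. Zscan4a gave between 11.9% and 13.2% in the 4 libraries.

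**Figure D2:**
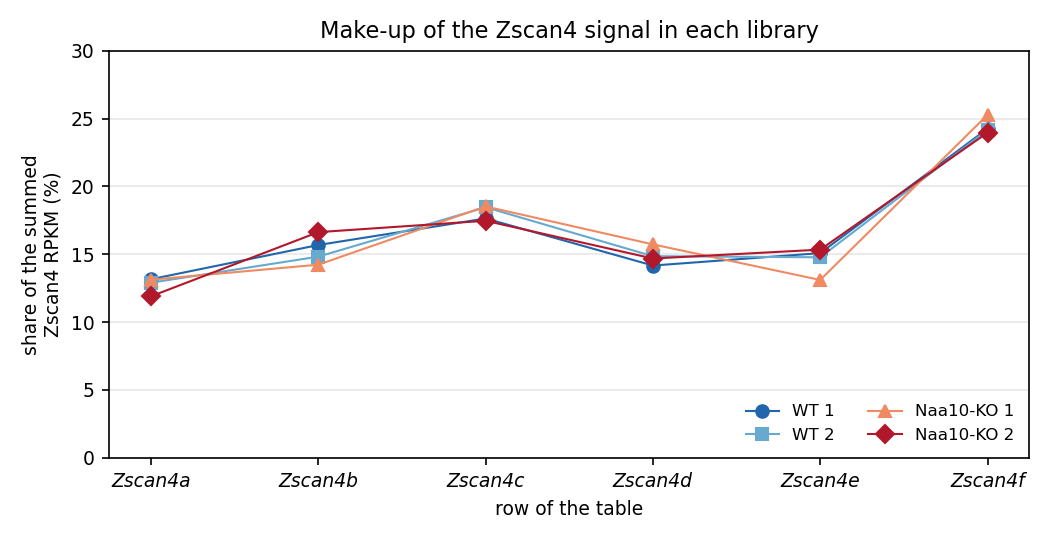
Share of each Zscan4 row in the summed Zscan4 RPKM of each library, in percent, with 1 line per library. The 4 lines run close together, with Zscan4f between 24.0% and 25.3% and Zscan4a between 11.9% and 13.2%.

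Genes known to be transcribed together with Zscan4 in 2-cell-like cells were read next. The list of 49 symbols also holds Eif1a and Eif1ad, which are expressed in most cells. It gave 17 rows, of which 11 passed the filter of 1 RPKM in at least 2 libraries. Dux, Zfp352, Tcstv1 and Tcstv3, which define the state, are not analysed here. Of the 11 tested rows, 0 passed adjusted p under 0.05 in limma, 7 had unadjusted p under 0.05 (22.1% of all tested rows did, in either direction), and 9 were lower and 2 higher in Naa10-KO. Over all 11912 tested rows, 6831 were lower and 5081 higher. The median log2 difference of the 11 rows was -0.43, with -0.06 over all tested rows. Gm5662, Gm8300 and 1 row of BB287469, 3 of the 11, passed the filter through WT alone, which favours lower values in the knockout, so the median and counts are a description only.

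In 12 of the 17 rows both knockout libraries lay below both WT libraries, against 33.9% of all rows. Among the 11 tested rows 8 lay below and 2 above, where 34.9% and 24.4% of all tested rows did. BB287469, an Eif1a-like gene of the 2-cell stage, had 2 rows. The first stood at 2.62 and 2.98 RPKM in WT against 1.85 and 1.52 in the knockout (log2 difference -0.50, limma adjusted p = 0.162), and the second at 1.46 and 1.62 RPKM and at 0.979 and 0.779 RPKM (-0.43, limma adjusted p = 0.176). Gm5662, also a member of this Eif1a-like group, stood at 1.23 and 1.31 RPKM in WT against 0.703 and 0.643 in the knockout. In each of these rows the 2 knockout libraries lay near each other, unlike in the Zscan4 rows.

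Gm2022 stood at 1.64 and 1.70 RPKM in WT against 1.05 and 0.878 in the knockout. Gm8300 stood at 1.24 and 1.26 RPKM in WT against 0.709 and 0.755 in the knockout, and Gm2016 at 1.43 and 1.58 RPKM and at 1.02 and 0.958 RPKM. These multicopy genes also resemble one another in sequence, and their rows may share reads. The joined row Gm20765 and Gm4340 stood at 2.54 and 3.01 RPKM in WT against 2.36 and 1.09 in the knockout, so replicate 1 lay near WT.

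Under the filter, Tmem92, which encodes a transmembrane protein, stood at 0.596 and 0.633 RPKM in WT against 0.314 and 0.207 in the knockout. Pramef25, of the PRAME family, stood at 0.334 and 0.407 RPKM in WT against 0.211 and 0.0925 in the knockout. These low rows had their lowest value in Naa10-KO replicate 2, as the Zscan4 rows did. That library lay below both WT libraries in 12 of the 17 rows of the list and in 47.9% of all 14099 rows. Usp17le, of a deubiquitinase family, stood at 0.678 and 0.485 RPKM in WT against 0.359 and 0.201 in the knockout. Its relative Usp17la stood at 0.639 and 0.750 RPKM in WT against 0.555 and 0.683 RPKM, and there the groups overlapped.

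B020004J07Rik stood at 0.398 and 0.557 RPKM in WT against 0.389 and 0.219 in the knockout. The joined row Duxbl1 and Duxbl2, double homeobox genes related to Dux, stood at 0.582 and 0.611 RPKM in WT against 0.690 and 0.605 in the knockout. Ddit4l, a regulator of mTOR signalling, stood at 5.11 and 4.76 RPKM in WT against 4.09 and 3.14 in the knockout. In the homeobox gene Obox6 the 2 knockout libraries parted, at 4.46 and 4.55 RPKM in WT, 1.63 RPKM in Naa10-KO replicate 1 and 4.72 RPKM in replicate 2. Eif1a, a translation start factor, and Eif1ad, named for its Eif1a-like domain, were higher in the knockout. They are expressed in most cells and were the 2 higher rows of the 11 tested, while the other 9 were lower. Eif1a stood at 73.8 and 78.3 RPKM in WT against 96.7 and 87.9 in the knockout, and Eif1ad at 24.1 and 24.1 RPKM and at 28.9 and 27.5 RPKM. Over the 17 rows the ratio of the group means ran from 0.409 for Pramef25 to 1.21 for Eif1a. The same ratio was 0.272 to 0.311 in the Zscan4 rows.

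**Figure D3:**
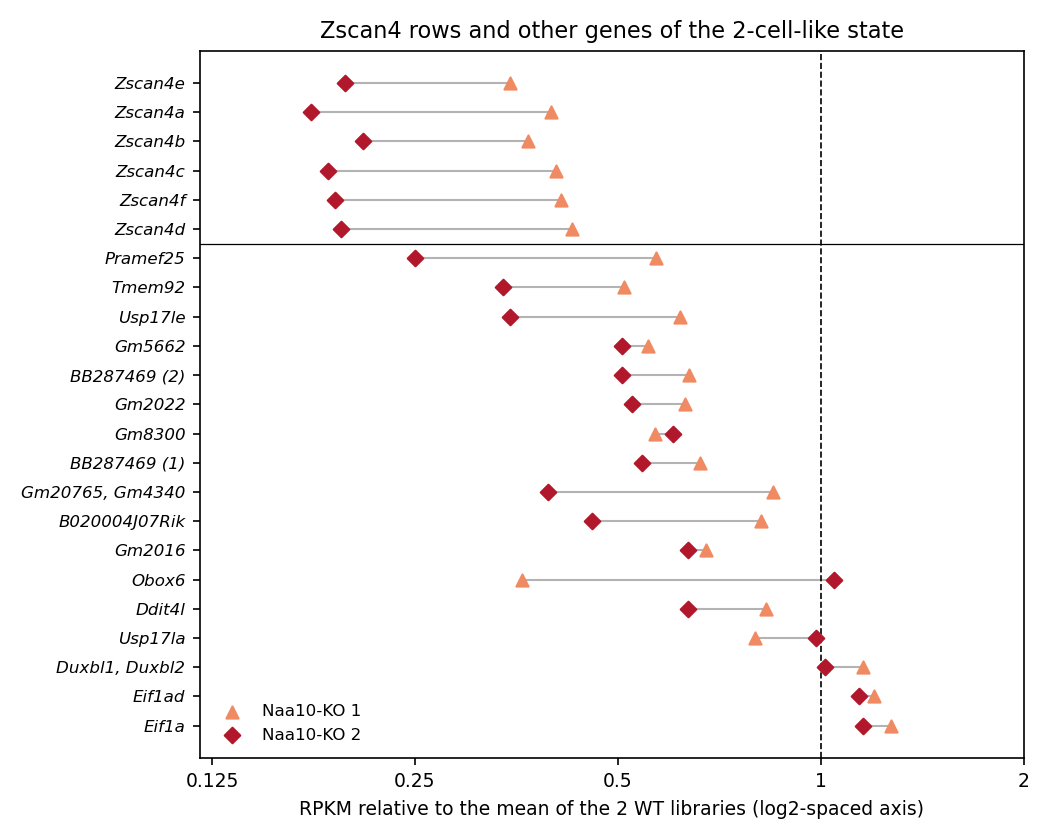
RPKM of each knockout library relative to the WT mean, on a log2-spaced axis, for the 6 Zscan4 rows (above the line) and the 17 rows of other 2-cell-like genes, with 1 marker per knockout library. The Zscan4 rows lie at 0.346 to 0.428 in Naa10-KO replicate 1 and 0.175 to 0.209 in replicate 2, and Eif1a and Eif1ad lie to the right of the dashed line at 1.

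Known activators of the 2-cell-like state were measured in 11 rows. In limma 0 of them passed adjusted p under 0.05 and 8 had unadjusted p under 0.05 (22.1% of all tested rows). In Naa10-KO 4 were higher and 7 lower (5081 and 6831 of the 11912 tested rows), with a median log2 difference of -0.24. Dppa2 and Dppa4 encode partner proteins that open Dux and Zscan4 chromatin, and their values went in opposite directions. Dppa2 stood at 70.0 and 71.0 RPKM in WT against 83.4 and 80.6 in the knockout (limma adjusted p = 0.192). Dppa4 stood at 90.3 and 86.2 RPKM in WT against 65.6 and 71.1 in the knockout (limma adjusted p = 0.138). Outside the naming rule, Nr5a2 and Gadd45b were chosen after their values were seen. Nr5a2 had the highest difference of the list (0.57, limma adjusted p = 0.0974). It stood at 25.5 and 25.1 RPKM in WT against 39.4 and 36.6 in the knockout. Gadd45b had the lowest difference (-0.77, limma adjusted p = 0.167), at 33.8 and 33.8 RPKM in WT against 15.7 and 23.7 in the knockout.

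Trp53, which encodes p53, an activator of Dux after DNA damage, stood at 296 and 298 RPKM in WT against 420 and 396 in the knockout (log2 difference 0.46, limma adjusted p = 0.0987). The groups did not overlap, and the knockout was the higher one. Top2a, the replicative topoisomerase II, stood at 134 and 138 RPKM in WT against 113 and 114 in the knockout. Tbx3, a T-box factor that raises Zscan4 in ESCs, stood at 106 and 100 RPKM in WT, at 51.3 RPKM in Naa10-KO replicate 1 and at 98.5 RPKM in replicate 2. Its low library was the one in which the Zscan4 rows lay less far below WT. Whether Tbx3 has a part in the Zscan4 values was not tested.

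Known repressors of the state were measured in 50 rows, of which 0 passed adjusted p under 0.05 in limma and 15 had unadjusted p under 0.05, where 22.1% of all tested rows did. In Naa10-KO 20 were higher and 30 lower, where 5081 and 6831 of all 11912 tested rows were. The median log2 difference was -0.06, the same as over all tested rows. Trim28, the corepressor that KRAB zinc finger proteins recruit, stood at 656 and 691 RPKM in WT against 775 and 763 in the knockout (0.19, limma adjusted p = 0.214). Kdm1a, the histone demethylase Lsd1, stood at 67.3 and 67.3 RPKM in WT against 58.2 and 65.5 in the knockout. Both Kdm1a knockout values were the lower ones, but replicate 2 lay near WT.

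Chaf1a, a subunit of the chromatin assembly complex CAF-1, stood at 37.9 and 37.6 RPKM in WT against 33.8 and 26.5 in the knockout. Rif1, which acts in replication timing and at Zscan4 chromatin, stood at 90.8 and 92.3 RPKM in WT against 83.7 and 54.7 in the knockout (-0.43, limma adjusted p = 0.340). In both rows replicate 2 was the lowest library, as in the Zscan4 rows and in the Smchd1 and Zmym2 rows that follow. Naa10-KO replicate 2 lay below both WT libraries in 28 of the 50 repressor rows and in 47.9% of all 14099 rows. Smchd1, a repressor of the Dux locus, stood at 13.2 and 13.1 RPKM in WT against 12.2 and 10.7 in the knockout. Zmym2, a zinc finger corepressor, stood at 10.6 and 10.2 RPKM in WT against 11.2 and 8.20 in the knockout.

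The DNA methylation pair that Zscan4 is known to reduce as protein was measured as RNA here. Dnmt1, the maintenance methyltransferase, stood at 77.2 and 75.8 RPKM in WT against 69.9 and 74.0 in the knockout (limma adjusted p = 0.499). Uhrf1, its guide to replicated DNA, stood at 132 and 139 RPKM in WT against 114 and 128 in the knockout (limma adjusted p = 0.369). Both had their lowest value in Naa10-KO replicate 1. Sumo2, Ncl and Hdac1 were, with Trim28, the 4 most abundant repressor rows. Sumo2, the SUMO modifier, shares a row with Mir684-1 and stood at 603 and 612 RPKM in WT against 653 and 702 in the knockout. Ncl, the nucleolar protein that acts with LINE1 RNA on Dux, stood at 365 and 384 RPKM in WT against 367 and 316 in the knockout. Hdac1, a histone deacetylase, stood at 262 and 270 RPKM in WT against 224 and 261 in the knockout. Outside the naming rule and chosen after its values were seen, Myc was the repressor row with the lowest adjusted p, at 21.4 and 21.3 RPKM in WT against 45.9 and 41.0 in the knockout (limma adjusted p = 0.0540). Suv39h1, a histone H3K9 methyltransferase, was also chosen after its values were seen and had 2 rows. The row with the highest difference of the list (1.10) was listed at 0 in WT replicate 2 alone, and 0 can be a failed estimate. The other stood at 11.3 and 13.0 RPKM in WT against 11.2 and 12.5 in the knockout (-0.03).

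Zscan4 acts at telomeres, so genes of telomerase and the telomere cap were read, in 32 rows. In limma 0 of 31 tested rows passed adjusted p under 0.05 and 3 had unadjusted p under 0.05 (22.1% of all tested rows). In Naa10-KO 13 were higher and 18 lower (5081 and 6831 of all 11912 tested rows), with a median log2 difference of -0.12. Dkc1, the pseudouridine synthase of telomerase RNA particles, stood at 96.8 and 97.3 RPKM in WT against 91.4 and 70.1 in the knockout. Its partner Nop10 stood at 451 and 451 RPKM in WT against 482 and 465 in the knockout, and its partner Nhp2 at 170 and 186 RPKM and at 226 and 178 RPKM. The partners thus did not share the direction of Dkc1. Outside the naming rule, Ten1 and Tep1 were chosen after their values were seen. Ten1 and 1 of 2 rows of Tep1, the telomere rows with the highest differences (2.10 and 0.81), were listed at 0 in WT replicate 1 alone. Their other WT library stood at 7.34 and 1.79 RPKM, and the knockout libraries at 10.8 and 11.97 RPKM for Ten1 and 2.03 and 1.84 RPKM for this Tep1 row. The other Tep1 row stood at 2.32 and 2.05 RPKM in WT against 1.67 and 2.29 in the knockout (-0.10).

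Zscan4 foci in ESCs are known to hold meiotic recombination proteins. Genes of that group were measured in 20 rows, of which 17 were tested. In limma 0 passed adjusted p under 0.05 and 9 had unadjusted p under 0.05 (22.1% of all tested rows). In Naa10-KO 3 were higher and 14 lower, where 5081 and 6831 of all 11912 tested rows were. The median log2 difference was -0.55 against -0.06 over all tested rows. Both knockout libraries lay below both WT libraries in 11 of the 17, against 34.9% of tested rows. Set against the WT mean, Naa10-KO replicate 1 had a median of -0.57 and replicate 2 one of -0.38. The lower median was that of replicate 1 here and that of replicate 2 for the Zscan4 rows, whose medians were -0.75 and -1.03.

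By abundance, the leading meiotic row was Syce2, a central element protein of the synaptonemal complex, at 121 and 127 RPKM in WT against 80.1 and 147 in the knockout. Trip13, a remodeller of meiotic axis proteins, stood at 26.3 and 26.2 RPKM in WT against 31.4 and 30.1 in the knockout. The strand exchange partners Mnd1 and Psmc3ip differed in pattern. Mnd1 stood at 23.1 and 22.5 RPKM in WT against 20.6 and 23.8 in the knockout, and Psmc3ip at 12.2 and 13.5 RPKM and at 9.41 and 9.64 RPKM. Dmc1, the meiotic recombinase, was chosen after its values were seen. It stood at 9.10 and 9.48 RPKM in WT against 3.97 and 5.74 in the knockout (limma adjusted p = 0.141). Also chosen after their values were seen, Sycp3, Stag3 and Syce3 had the lowest differences of the list (-1.22, -1.20 and -1.17). The lowest Zscan4 difference was -1.07. Each of these meiotic rows was under 0.5 of its WT mean in both knockout libraries, as the Zscan4 rows were. Of the 17 tested meiotic rows, 3 were higher in Naa10-KO.

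Other SCAN-domain zinc finger genes, relatives of Zscan4 by domain, were measured in 27 rows. Of these, 15 had a higher WT mean than every Zscan4 row and 6 a lower one than every Zscan4 row. In the Naa10-KO means, 22 lay above every Zscan4 row. Of 22 tested rows, 0 passed adjusted p under 0.05 in limma and 6 had unadjusted p under 0.05 (22.1% of all tested rows). In Naa10-KO 11 were higher and 11 lower (5081 and 6831 of all 11912 tested rows), with a median log2 difference of 0.02. Rows of these relatives thus lay on both sides of WT.

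Zscan10, an ESC factor and the most abundant SCAN relative, stood at 42.0 and 38.8 RPKM in WT against 69.4 and 40.1 in the knockout. Peg3, an imprinted SCAN gene, stood at 23.6 and 22.0 RPKM in WT against 36.2 and 36.2 in the knockout (0.64, limma adjusted p = 0.0878). Zkscan17 stood at 16.7 and 17.2 RPKM in WT against 20.6 and 17.0 in the knockout. Zfp110 stood at 12.1 and 11.8 RPKM in WT against 15.2 and 12.5 in the knockout. Zfp397 and Zkscan2 were chosen after their values were seen. Zfp397 had the lowest difference of the list (-0.52, limma adjusted p = 0.161), at 2.61 and 2.75 RPKM in WT against 1.78 and 1.36 in the knockout. Zkscan2, under the filter, stood at 0.181 and 0.486 of its WT mean in Naa10-KO replicates 1 and 2.

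**Figure D4:**
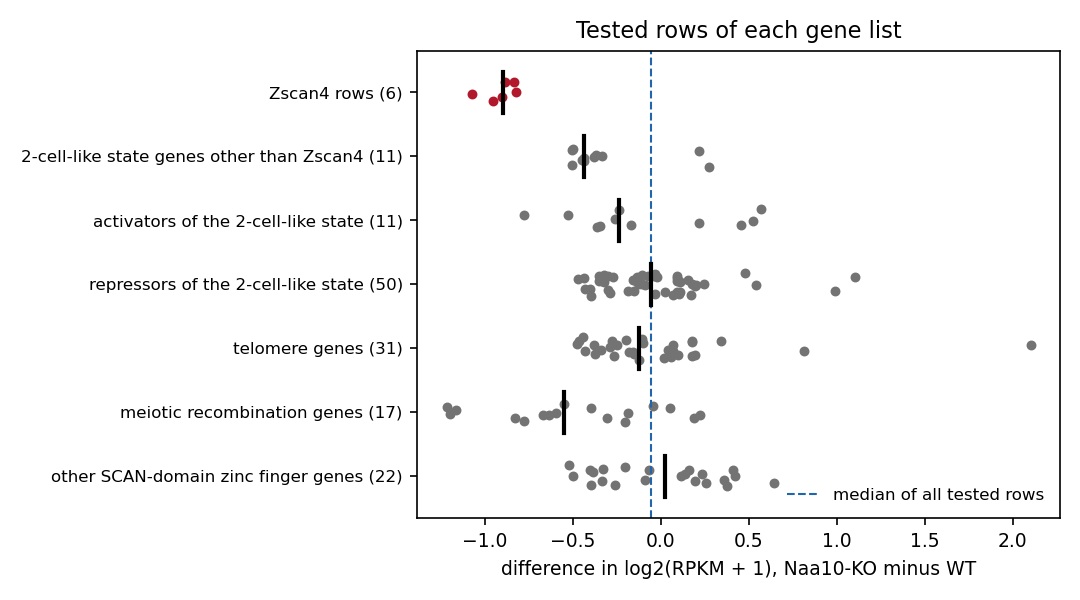
Difference in log2(RPKM + 1), Naa10-KO minus WT, for the tested rows of each gene list, with 1 point per row, a black bar at the list's median and a dashed line at the median of all tested rows (-0.06). The 6 Zscan4 rows lie between -1.07 and -0.82, and the medians of the 2-cell-like and meiotic lists lie at -0.43 and -0.55.

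Of the 30 genes next to the cluster, 15 on each side by RefSeq gene order, 1 had a row. Zik1, a KRAB zinc finger gene, stood at 2.45 and 2.73 RPKM in WT against 2.54 and 2.28 in the knockout (-0.08, limma adjusted p = 0.733). Its groups overlapped, at a WT level within the range of the Zscan4 rows.

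Fibroblast markers were read because MEFs had fed the cells. Their summed level over 23 rows was 210 and 214 RPKM in WT, 728 RPKM in Naa10-KO replicate 1 and 156 RPKM in replicate 2. In replicate 1, 20 of 23 rows lay above both WT libraries, and in replicate 2, 20 of 23 lay below both, with none at 0. Of all 14099 rows, 38.9% lay above both WT libraries in replicate 1 and 47.9% below both in replicate 2. Of 22 tested rows, 0 passed adjusted p under 0.05 in limma and 0 had unadjusted p under 0.05. Col1a1, a type I collagen chain, stood at 14.3 and 14.9 RPKM in WT against 36.9 and 8.47 in the knockout, and Col1a2 at 6.58 and 7.60 RPKM and at 15.9 and 2.18 RPKM. The Zscan4 sum was lowest in the library with the lowest fibroblast sum. The Zscan4 rows were below WT in both knockout libraries, while the marker sum lay above WT in one and below it in the other. Whether fibroblast RNA has a part in the Zscan4 values was not tested.

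General pluripotency markers were measured in 16 rows, with a median of -0.23 in Naa10-KO replicate 1 and 0.26 in replicate 2. In limma 0 of 16 passed adjusted p under 0.05 and 6 had unadjusted p under 0.05 (22.1% of all tested rows). In Naa10-KO 8 were higher and 8 lower, where 5081 and 6831 of all 11912 tested rows were. What part the differences between the 2 knockout libraries have in the Zscan4 values was not tested.

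The 6 rows nearest in pattern to the Zscan4 rows were found by the distance, over the 4 libraries, between each row's log2(RPKM + 1) difference from its WT mean and the median Zscan4 difference. Among 11654 rows they were Ankrd16, Gas5, Rab26os, Rtp4, 9430008C03Rik and Snrnp48, with distances from 0.0421 to 0.0845. Ankrd16, an ankyrin repeat protein gene, stood at 2.95 and 3.01 RPKM in WT against 1.44 and 0.967 in the knockout. Gas5, a long noncoding RNA that hosts small nucleolar RNAs, stood at 100.1 and 104 RPKM in WT against 61.3 and 48.6 in the knockout. Rtp4, an interferon-induced receptor transporter, stood at 3.97 and 4.39 RPKM in WT against 2.13 and 1.49 in the knockout. In linear terms the likeness was looser, since Gas5 stood at 0.600 and 0.476 of its WT mean and Ankrd16 at 0.483 and 0.324. The added 1 RPKM shrinks the log2 difference of rows as low as Zscan4.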

How the data were processed

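The authors deposited 1 table of RPKM per library, per the file headers. The submitters' processing notes name mm9, Cufflinks and bedtools, without versions. The sources used here do not give the aligner, annotation or read length. Rows joining several symbols were kept as deposited and symbols were split at commas.

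Differences were tested, two-sided, with limma 3.58.1 (R 4.3.3, mean-variance trend) on log2(RPKM + 1), over the 11912 rows that reached 1 RPKM in 2 or more libraries, with Benjamini-Hochberg adjustment over all of them. This scale understates the change of low genes. Residual degrees of freedom were 2, with 1.94 borrowed across rows. The test and the depth search were tested on simulated data. The simulated libraries for limma shared 1 spread, while here the Naa10-KO pair differed more than the WT pair. The simulation therefore cannot show how the test behaves under unequal spread. Depth came from the steps of low RPKM values. Tables were handled with pandas 2.3.3 in Python 3.11.15 and transcripts aligned with MAFFT 7.526.

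Members and lists were chosen with earlier results of these data known. Named were all Zscan4 and 2-cell-like rows, called rows or else the 4 most abundant of each other list, set regulators, Col1a1, Col1a2, Pou5f1, and the 6 rows nearest in pattern. Outside this rule, Myc, Suv39h1, Ten1, Tep1, Dmc1, Sycp3, Stag3, Syce3, Nr5a2, Gadd45b, Zfp397 and Zkscan2 were named after their values were seen. RefSeq and GENCODE (GRCm38) gave sequences, gene types and gene order only. Alternatives covered pseudocounts, filters, centring, replicate blocks and left-out libraries.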

Additional observations from a re-analysis of the deposited data

How the results depend on the processing

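The number of Zscan4 rows past the threshold was 0 as reported and 0 under the other pseudocounts, filters, centring, variance and block settings, with each row's difference negative throughout. The ratio of the Zscan4 sums ran from 0.192 to 0.395 when 1 library was left out. With a pseudocount of 0.1 the log2 differences of the Zscan4 rows ran from -1.72 to -1.59 (limma adjusted p 0.125 to 0.154). Leaving out 1 library moved the Zscan4 count between 0 and 6. All 6 passed without Naa10-KO replicate 1 (limma adjusted p 0.00566 to 0.00810) and without Naa10-KO replicate 2 (0.00470 to 0.00839), where the lone library is assumed to vary like the WT pair and 4938 and 7081 of all rows passed. Without WT replicate 1 or 2, the lone WT library is assumed to vary like the knockout pair, adjusted p was 0.969 and 0.947, and 12 and 15 of all rows passed. The same leave-outs moved the counts over 0 to 9 rows for the 2-cell-like list, 0 to 11 for activators, 0 to 28 for repressors, 0 to 14 for telomere genes, 0 to 14 for meiotic genes, 0 to 16 for SCAN relatives, 0 to 18 for fibroblast markers and 0 to 15 for pluripotency markers.

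With the replicate block, 0 Zscan4 rows passed (limma adjusted p 0.215 to 0.260) and 44 of all rows passed, against 91. Same-numbered libraries had a correlation of deviations of -0.14 over 11660 rows, so the numbers are not taken to pair them, and the crossed replicate block, added after seeing the data, called 133 rows, 0 of them Zscan4 and 1 a repressor, Myc. Over all rows, 40 passed with no filter, 37 with a mean of at least 0.5 RPKM, and 0 of 11660 without small RNA rows and rows listed at 0.

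Among the rows that the naming rule covers, signs turned for 7. Rows named outside that rule were not counted here. Without Naa10-KO replicate 1 and without replicate 2, in that order, the log2 difference was 0.055 and -1.07 for Obox6, 0.25 and -0.62 for Syce2, 0.056 and -0.14 for Mnd1, -0.0095 and 0.77 for Zscan10, -0.72 and 1.28 for Col1a1, -0.31 and 0.099 for Zmym2, and -1.34 and 1.06 for Col1a2. With each library centred on its median, that of Mnd1 was 0.021. The cause was not tested. Low fragment numbers limit the Zscan4 rows most in Naa10-KO replicate 2, and 200-nt fragments were assumed for them.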
